A study of Mus musculus with 24 samples.

Results

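The renin-angiotensin genes of the brain were described through 9 genes: *Agt*, *Ren1*, *Ace*, *Agtr1a*, *Atp6ap2*, *Enpep*, *Anpep*, *Lnpep* and *Mme*. Every non-control probe whose sequence accession belonged to 1 of these symbols was taken, which gave 11 of the 56605 different probes on the array and 9 of the 23787 genes with a name. Of the 9 genes, 7 had 1 such probe each, and *Enpep* and *Mme* had 2 each. A name was matched to 34566 of the 56605 probes, so further probes of these genes may be among the others. The samples were whole hippocampi of 48 male Swiss-Webster mice, none of them pooled. The labels give an age of 12 weeks. By the methods of the study, a habituation of some weeks lay between that age and the treatment. The treated mice drank water with corticosterone at 100 µg/ml and hydroxypropyl-β-cyclodextrin at 0.45% through 1 night, and the control mice drank water with the same share of cyclodextrin and no hormone. Mice were killed in the first, the fifth or the ninth hour of the next light phase, with 8 control and 8 treated mice in each hour. Each of the 24 arrays held 1 control mouse in the Cy3 channel and 1 treated mouse in the Cy5 channel, and no array had the dyes the other way round.

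The renin-angiotensin system cuts a large precursor protein, angiotensinogen, into small signalling peptides. Renin makes the first cut and angiotensin-converting enzyme the next, and the resulting angiotensin II acts on the AT1 receptor, while aminopeptidases and other peptidases trim or break down the peptides. In the brain angiotensinogen comes largely from astrocytes, and the system is known for its part in thirst, blood pressure and the response to stress.

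The arrays lay on 3 slides. On slide 1 there were 2 arrays of the first hour, 2 of the fifth and 4 of the ninth. Both other slides carried 3 of the first hour, 3 of the fifth and 2 of the ninth. Over the arrays, the median spot intensity ran from 82 to 96 in Cy3 and from 120.5 to 160.5 in Cy5. The scanner software marked 60.8 to 67.2% of the spots of an array as well above background in Cy3 and 64.0 to 73.5% in Cy5, and 0 spots as saturated. The number of arrays limits the precision of every value below. Signal intensity means the background-corrected and normalized intensity of a probe in 1 channel, in arbitrary units, and fold changes are taken only within a probe, since probes differ in how strongly they bind. Where the most intense probe of a list or the sum over a list is given, it describes signal and does not rank amounts of RNA between genes. All 8 neuronal markers were well above background in all 48 channels, with *Camk2a* the most intense (mean intensity 58969.8), so the labelled tissue, hippocampus, held its neuronal markers.

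The first question was which of the genes differed between treated and control mice in each hour. A probe counted as called when its adjusted p in the limma fit over all 56605 probes was under 0.05. At the first hour 3 of the 11 probes were called, those of *Agt*, *Ren1* and *Ace*, all higher with corticosterone, where 17.5% of all probes were called. At the fifth hour 1 of the 11 probes was called, that of *Agt*, where 18.1% of all probes were called. At the ninth hour 1 of the 11 probes was called, again that of *Agt*, where 13.9% of all probes were called. At an unadjusted p under 0.05 the counts were 5, 3 and 2 of the 11 probes, beside 17616, 17658 and 15788 of all 56605 probes. Over the 9 genes, each by its most intense probe, the median log2 fold change was 0.00079 in the first, -0.0077 in the fifth and 0.017 in the ninth hour, beside medians of -0.0012, 0.00096 and 0.00070 over all probes. Nothing is read from these counts about the list as a whole. Because a treated mouse always carried Cy5, a probe that takes up one dye better than the other adds a constant to these values, which cannot be told apart from the effect of corticosterone within 1 hour.

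*Agt* encodes angiotensinogen, the precursor of every angiotensin peptide. Its signal intensity in the first hour ran from 605 to 926 in the 8 control mice, with a median of 753, and from 1030.1 to 1988 in the 8 treated mice, with a median of 1406. Every treated mouse of the first hour lay above every control mouse of that hour. The control mice of the fifth hour ran from 562 to 887, with a median of 701, and the treated mice from 1079.9 to 2579, with a median of 1745. The control mice of the ninth hour ran from 633 to 1007, with a median of 855, and the treated mice from 1139.9 to 1996, with a median of 1520.2. The groups did not overlap in these hours either: the highest of all 24 control mice was at 1007 and the lowest of all 24 treated mice at 1030.1, as the plot of signal intensity in every mouse shows. In the order of the group means, the treated mice of the fifth (1732 ± 500.1, SD, n = 8), the ninth (1534 ± 272) and the first hour (1409 ± 299) came before the control mice of the ninth (827 ± 110.0), the first (754 ± 109) and the fifth hour (722 ± 97.6). Neighbours within the treated and within the control mice differed by less than their SDs, and the step from treated to control mice was larger than them.

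**Figure D1:**
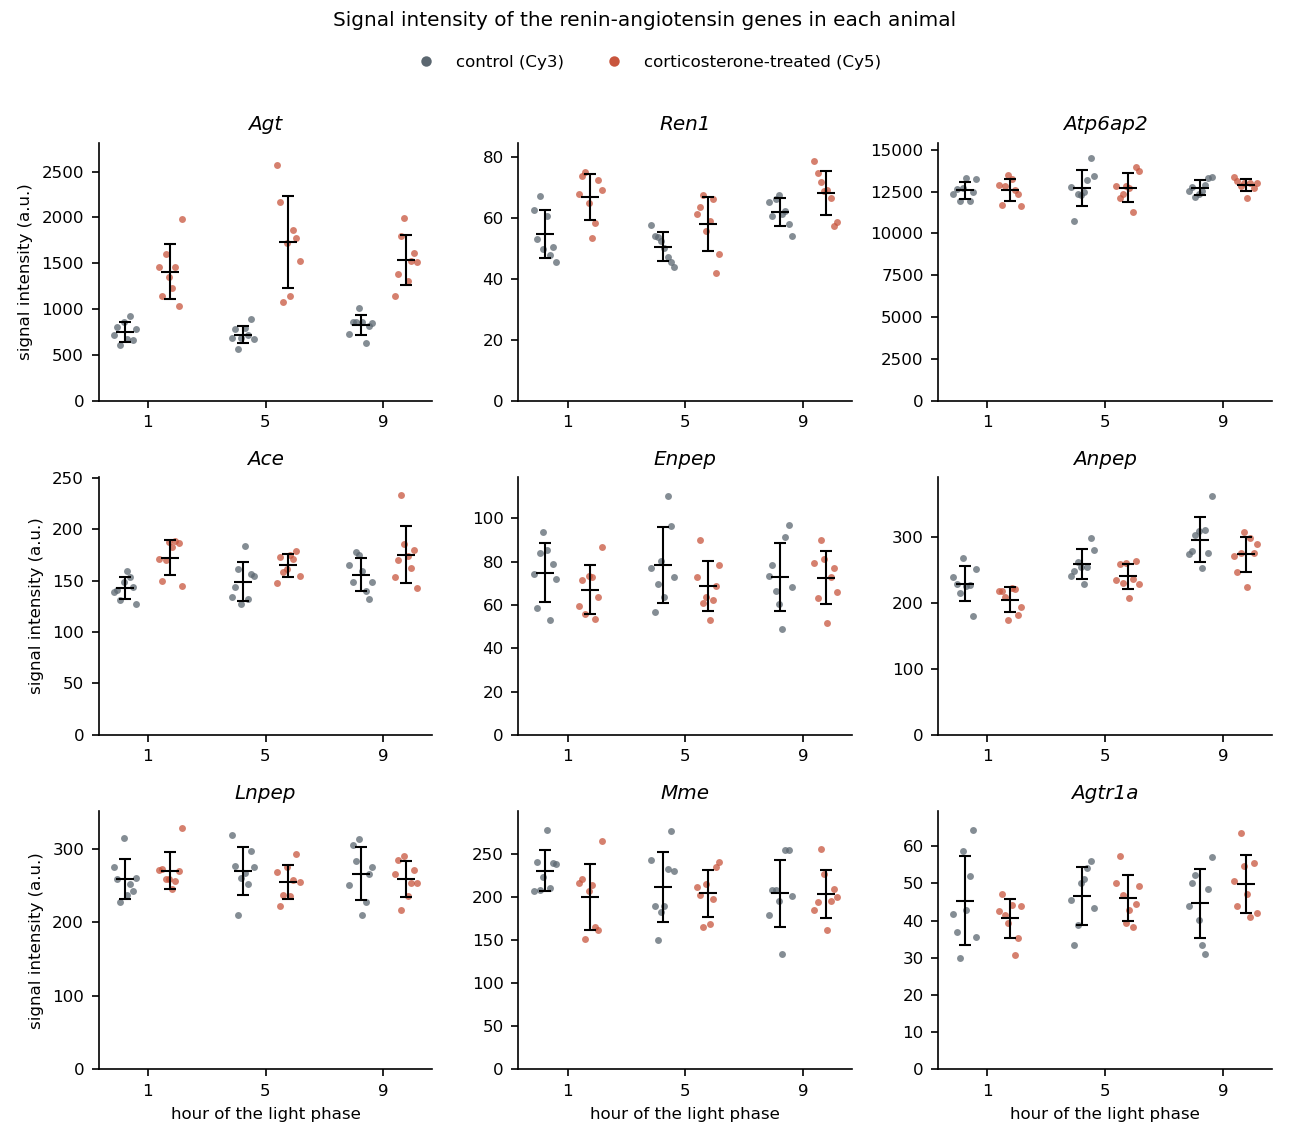
Signal intensity (arbitrary units, linear axes from 0) of the 9 genes by hour of the light phase, each by its most intense probe. Each point is 1 mouse, 8 control and 8 corticosterone-treated in each hour, and the bars are group means with SD; the treated and control mice of *Agt* are apart in each hour, from 1030.1 up and from 1007 down.

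The log2 fold change of *Agt* with corticosterone was 0.89 in the first hour (SE 0.12, adjusted p 1.4e-07), higher in 8 of 8 arrays. It was 1.22 in the fifth hour (SE 0.12, adjusted p 6.2e-11), again in 8 of 8 arrays. It was 0.88 in the ninth hour (SE 0.12, adjusted p 3.9e-07), also in 8 of 8 arrays. These are 1.85-fold, 2.33-fold and 1.84-fold levels of the control mice. In bulk samples a change in the number of cells of a type, more or fewer, and a change in RNA per cell, more or less, cannot be told apart. With slide as a block the adjusted p values were 1.1e-07, 5e-11 and 3e-07 for the same fold changes. Within slides 1, 2 and 3 the mean log2 ratio was 0.76, 0.98 and 0.88 in the first hour, 1.70, 0.93 and 1.19 in the fifth, and 0.85, 0.93 and 0.90 in the ninth. The fifth hour was thus the one in which the slides lay furthest apart, with both arrays of slide 1 at the top of the plot of log2 ratios by slide. Among the 32035 probes with a mean intensity of 50 or more, 66 had a larger log2 fold change than *Agt* in the first hour, 11 in the fifth and 21 in the ninth.

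**Figure D2:**
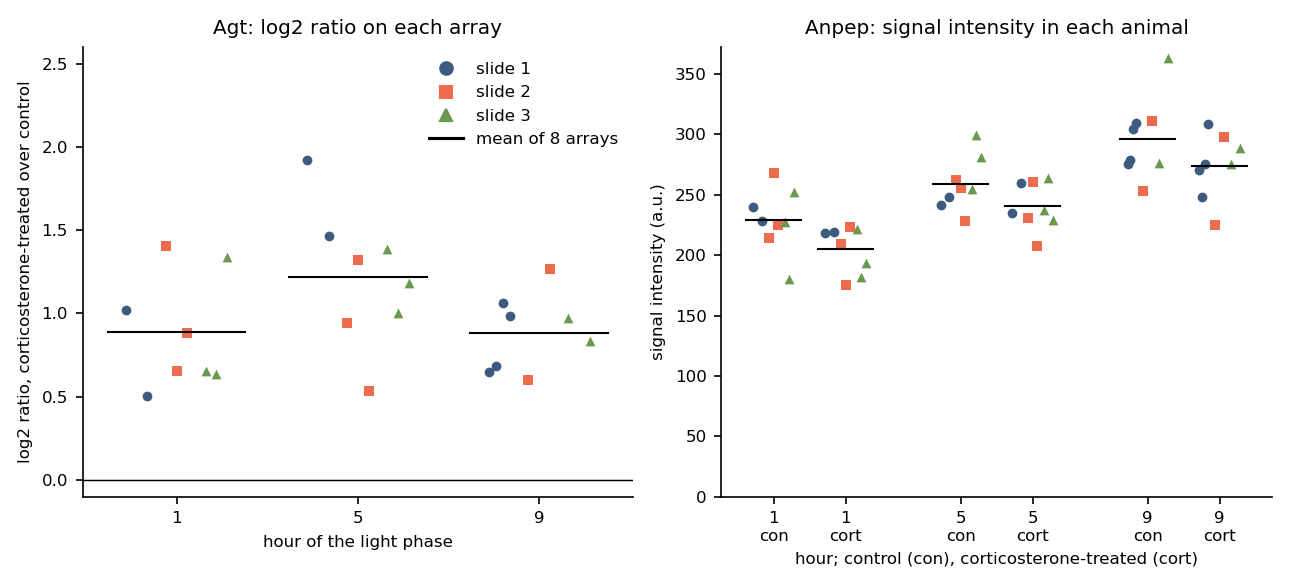
Left, log2 ratio of treated over control for *Agt* on each of the 24 arrays by hour of the light phase; right, signal intensity (arbitrary units) of *Anpep* in each of the 48 mice. Colours and shapes give the slide and lines the means of 8; all 24 *Agt* ratios lie above 0, from 0.50 to 1.92, and *Anpep* lies higher in the ninth than in the first hour in control and in treated mice.

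The effect on *Agt* was then compared between hours, where a constant dye difference cancels. The ninth hour minus the first gave -0.0047 on the log2 scale, with a 95% interval from -0.34 to 0.33 and an adjusted p of 1. The fifth hour minus the first gave 0.33 (interval 0.00026 to 0.66, adjusted p 1), and the ninth minus the fifth gave -0.34 (interval -0.67 to -0.0049, adjusted p 0.93). Neither passed the threshold over all probes, so the higher value of the fifth hour is not shown to differ from the other hours, and a p that misses the threshold does not show no difference. Within the control mice *Agt* differed by 0.13 between the ninth and the first hour (interval -0.14 to 0.41, adjusted p 0.81).

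The promoters of the 3 genes called in the first hour are shown because these genes were higher together there. They come from the RefSeq table of GRCm38.p6 and run from 250 bases before the start of the transcript to 50 after it, written 5′ to 3′ in the direction of the gene. Capitals mark the letters TATAAA, or their reverse complement TTTATA, found by a search of both strands. The *Agt* window lies at chr8:124569657-124569956 on the minus strand, the *Ren1* window at chr1:133350424-133350723 on the plus strand and the *Ace* window at chr11:105967698-105967997 on the plus strand. The table holds another *Ace* entry, at chr11:105974939-105975238, which holds none of the motifs below and is not shown.
Agt: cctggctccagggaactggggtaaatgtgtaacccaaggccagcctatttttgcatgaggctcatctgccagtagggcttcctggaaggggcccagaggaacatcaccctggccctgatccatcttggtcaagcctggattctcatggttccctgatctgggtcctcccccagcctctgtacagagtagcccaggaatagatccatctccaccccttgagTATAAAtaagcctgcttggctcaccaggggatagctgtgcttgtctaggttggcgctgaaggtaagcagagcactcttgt
Ren1: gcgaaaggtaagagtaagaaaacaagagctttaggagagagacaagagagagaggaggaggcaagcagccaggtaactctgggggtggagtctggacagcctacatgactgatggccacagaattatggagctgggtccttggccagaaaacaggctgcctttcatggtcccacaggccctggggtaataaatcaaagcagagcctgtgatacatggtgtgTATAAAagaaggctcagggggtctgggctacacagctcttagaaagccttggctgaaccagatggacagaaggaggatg
Ace: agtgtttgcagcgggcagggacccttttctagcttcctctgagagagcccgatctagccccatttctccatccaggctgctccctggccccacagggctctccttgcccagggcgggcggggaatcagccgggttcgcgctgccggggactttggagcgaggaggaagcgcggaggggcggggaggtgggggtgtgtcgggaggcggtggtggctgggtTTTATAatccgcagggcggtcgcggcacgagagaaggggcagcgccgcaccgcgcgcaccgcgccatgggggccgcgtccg
The capitals stand at positions -30 to -25 from the start in *Agt*, -29 to -24 in *Ren1* and, on the other strand, -31 to -26 in *Ace*. Of all 32851 windows of this length, 13.6% hold TATAAA or TTTATA. A short glucocorticoid receptor motif, AGAACA or its reverse complement TGTTCT, is in none of these 3 windows and in 19% of all windows. The full palindrome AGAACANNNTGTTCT, which contains the short motif on both strands, is in 3 of the 32851 windows (0.00913%). Among the 11 entries of the 8 genes matched in the table, 1 holds the short motif, that of *Atp6ap2*, and 4 hold TATAAA or TTTATA, the 3 shown and that of *Enpep*, which was called in no hour. A match is a description of letters in this window, and a missing one says only that they are not there.

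*Ren1* encodes renin, the enzyme that cuts angiotensinogen. Its signal was low, with a mean intensity of 59.96, but well above background in all 48 channels. The signal in the first hour ran from 45.5 to 67.2 in control mice, with a median of 51.7, and from 53.5 to 75.03 in treated mice, with a median of 68.5. Of the 8 treated mice, 5 lay above every control mouse, and the other 3 lay within the range of the controls. Control mice of the fifth hour ran from 43.9 to 57.5 (median 51.3) and the treated mice from 42.0 to 67.4 (median 60.1). For the ninth hour the ranges were 53.9 to 67.4 (median 61.8) and 57.3 to 78.7 (median 69.1). The groups overlapped in each hour. The group means stood in the order of treated mice of the ninth (68.1 ± 7.36, SD) and the first hour (66.8 ± 7.64), control mice of the ninth (61.9 ± 4.52), treated mice of the fifth (57.9 ± 8.93), and control mice of the first (54.6 ± 7.86) and the fifth hour (50.5 ± 4.71), with each pair of neighbours closer than the larger of their SDs.

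The log2 fold change of *Ren1* with corticosterone was 0.30 in the first hour (SE 0.074, adjusted p 0.0057), higher in 7 of 8 arrays. It was 0.19 in the fifth (interval 0.037 to 0.33, adjusted p 0.090) and 0.14 in the ninth hour (interval -0.013 to 0.28, adjusted p 0.22), with 7 of 8 arrays higher in each. The first-hour value was 0.29, 0.12 and 0.47 within slides 1, 2 and 3 and had an adjusted p of 0.0020 with slide as a block. It did not pass the threshold without slide 3, where it was 0.19, and over the alternatives it ran from 0.15, with an offset of 50, to 0.40, without slide 2. The difference of the effect between the ninth and the first hour was -0.16 (interval -0.37 to 0.051, adjusted p 0.91), so the hours are not shown to differ. The mouse gene *Ren2* is a near copy of *Ren1*, and how far this probe also binds *Ren2* RNA was not tested.

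*Ace* encodes angiotensin-converting enzyme, which turns angiotensin I into angiotensin II. Its signal in the first hour ran from 127.4 to 159 in control mice, with a median of 142, and from 145 to 189 in treated mice, with a median of 176. Of the 8 treated mice, 6 lay above every control mouse, and the other 2 within the range of the controls. Control mice of the fifth hour lay from 127.3 to 184 (median 149) and the treated mice from 148 to 179 (median 166). For the ninth hour the ranges were 132 to 178 (median 154) and 143 to 233 (median 172). The groups overlapped in each hour. The 3 treated groups had the higher means, 175 ± 27.3 (SD) in the ninth, 172 ± 17.2 in the first and 165 ± 11.1 in the fifth hour, against 156 ± 16.5, 143 ± 10.8 and 149 ± 18.8 in the control mice of the same hours, and neighbours in this order differed by less than their SDs.

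The log2 fold change of *Ace* was 0.27 in the first hour (SE 0.066, adjusted p 0.0027), higher in 8 of 8 arrays. It was 0.15 in the fifth (interval 0.021 to 0.29, adjusted p 0.098), higher in 5 of 8 arrays, and 0.16 in the ninth hour (interval 0.030 to 0.29, adjusted p 0.083), higher in 6 of 8. The first-hour value was 0.19, 0.30 and 0.29 within slides 1, 2 and 3 and had an adjusted p of 0.0038 with slide as a block. It did not pass the threshold without slide 2 (0.25) or without slide 3 (0.26). The difference of the effect between the ninth and the first hour was -0.11 (interval -0.29 to 0.081, adjusted p 0.96).

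**Figure D3:**
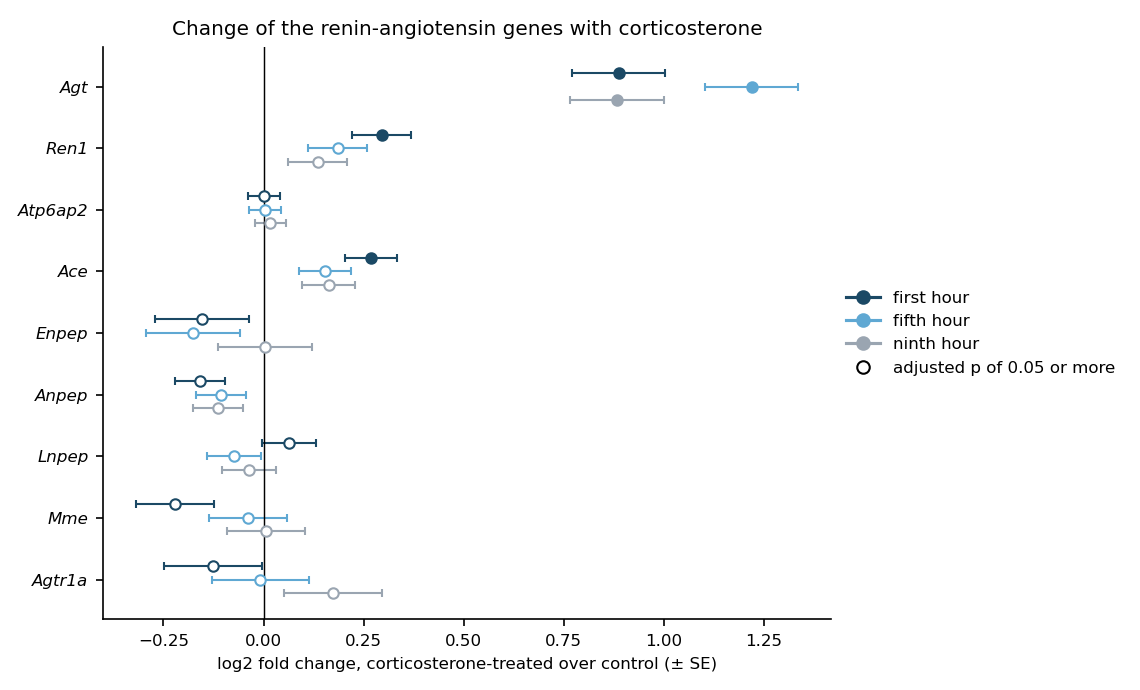
Log2 fold change of corticosterone-treated over control mice for the 9 genes in the first, the fifth and the ninth hour, with the SE of the fit; filled points have an adjusted p under 0.05 and open ones do not. *Agt* stands apart at 0.89, 1.22 and 0.88, *Ren1* and *Ace* follow at 0.30 and 0.27 in the first hour, and the other 6 genes were called in none of the hours.

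The receptors among the 9 genes were not called. Further receptors, such as *Agtr1b* and *Mas1*, are read below with the rest of the pathway. *Agtr1a* encodes the AT1a receptor of angiotensin II, and its probe was dim, with a mean intensity of 45.5. It was well above background in 4, 6 and 5 of the 8 control channels of the first, the fifth and the ninth hour and in all 24 treated channels. The treated channels were Cy5, in which a larger share of all spots was marked so on every array. This count cannot tell the dye from the treatment. Its signal ran from 30.002 to 64.4 in control and from 30.7 to 63.5 in treated mice over all hours, and the groups lay across each other. The log2 fold change was -0.13 (interval -0.37 to 0.12) in the first, -0.0077 (interval -0.25 to 0.24) in the fifth and 0.17 (interval -0.073 to 0.42) in the ninth hour, values that rest on signals close to background. *Atp6ap2* encodes the prorenin receptor, which is also a part of the proton pump of acidic vesicles. Its signal ran from 10715 to 14483 in control and from 11306 to 13968 in treated mice. Its log2 fold changes were 0.00079, 0.0041 and 0.017, with intervals inside -0.079 and 0.096, the narrowest among the 9 genes.

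Among the peptidases that trim angiotensins, *Enpep* encodes aminopeptidase A, which makes angiotensin III. Its more intense probe ran from 49.1 to 110.3 in control and from 51.6 to 90.1 in treated mice, with log2 fold changes of -0.15, -0.18 and 0.0032 in the 3 hours, and adjusted p values of 0.37, 0.28 and 0.99. Its other probe was well above background in 0 of 48 channels, and no fold change is given for it. *Lnpep* encodes the insulin-regulated aminopeptidase, which binds angiotensin IV. It ran from 210 to 319 in control and from 216 to 329 in treated mice, with log2 fold changes of 0.063, -0.074 and -0.036 and a smallest adjusted p of 0.45. *Mme* encodes neprilysin, which forms and breaks down shorter angiotensin peptides. The more intense *Mme* probe in the first hour ran from 207 to 278 in control mice (median 231) and from 151 to 265 in treated mice (median 210.5). Of the treated mice, 4 lay below every control mouse and the others among them. The log2 fold change of *Mme* was -0.22 in the first hour (interval -0.42 to -0.024, adjusted p 0.098), lower in 6 of 8 arrays, and -0.039 and 0.0057 in the later hours. The dimmer *Mme* probe, well above background in 20 of 24 control (Cy3) and all 24 treated (Cy5) channels, gave -0.080, -0.022 and 0.029. In *Enpep*, *Lnpep*, *Mme* and *Atp6ap2* the means of neighbouring groups in the order of the 6 groups differed by less than their SDs.

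*Anpep* encodes aminopeptidase N, which shortens angiotensin III to angiotensin IV. Signals in the first hour ran from 181 to 268 in control mice (median 228) and from 175 to 223 in treated mice (median 214). Signals in the fifth hour ran from 229 to 299.6 in control mice (median 255) and from 208 to 264 in treated mice (median 236). Signals in the ninth hour ran from 253 to 363 in control mice (median 291) and from 225 to 308 in treated mice (median 276). Treated and control mice overlapped in each hour, and within each treatment the ninth hour stood highest and the first lowest. The group means rank from the control mice of the ninth hour (296 ± 33.7, SD), over the treated mice of the ninth (274 ± 27.0), the control and the treated mice of the fifth (259 ± 22.4 and 240.5 ± 19.5) and the control mice of the first (229.5 ± 26.02) to the treated mice of the first hour (205 ± 19.2). Only the last pair of neighbours in this order differed by more than the SD of 1 of its groups. With corticosterone the log2 fold change was -0.16 in the first hour (interval -0.28 to -0.033, adjusted p 0.062), -0.11 in the fifth (adjusted p 0.22) and -0.11 in the ninth (adjusted p 0.19), with 1, 2 and 0 of 8 arrays higher. Of the first-hour arrays, 2 had log2 ratios of -0.61 and -0.38, and the others lay between -0.13 and 0.012.

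The next question was which genes differed between hours within the control mice and within the treated mice, comparisons that stay within 1 dye. In the control mice 1 of the 11 probes was called between the ninth and the first hour, that of *Anpep*, where 0.516% of all probes were called. In the treated mice 1 of the 11 was called between the same hours, again that of *Anpep*, where 3.93% of all probes were called. In control mice its log2 fold change of the ninth over the first hour was 0.37 (SE 0.073, adjusted p 0.0031), and 7 of the 8 mice of the ninth hour lay above all of the first. In treated mice it was 0.41 (SE 0.073, adjusted p 8.3e-05), and all 8 mice of the ninth hour lay above all of the first, from 225 up against 223 down. Within slides 1, 2 and 3 it was 0.32, 0.26 and 0.54 in control and 0.33, 0.36 and 0.51 in treated mice, and with slide as a block the adjusted p values were 0.0052 and 0.00016. In control mice it did not pass the threshold without slide 1 (0.40) or without slide 3 (0.295). Since the hours are compared within separate mice, the 2 fold changes share no mouse, but each array carried 1 mouse of each treatment. By the methods of the study the control mice were siblings of the treated ones and a group came from several litters; the fit holds no term for the litter. Their difference was 0.045 (interval -0.13 to 0.22, adjusted p 1).

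The other comparisons gave 0 called probes of the 11 in the limma fit. For the fifth against the first hour these were 0 in control mice, where 0.0053% of all probes were called. In treated mice they were 0 as well, where 0.537% were called. Without adjustment 1 and 3 of the 11 had a p under 0.05, beside 4000 and 5325 of all 56605 probes. Between the ninth and the fifth hour they were 0 in control mice, where 0.0318% of all probes were called. In treated mice they were 0 too, where 0.668% were called. At an unadjusted p under 0.05 there were 2 of the 11 in each, beside 3606 and 5791 of all 56605 probes. For the difference of the corticosterone effect, the ninth minus the first hour, 0 of the 11 were called, where 0.829% of all probes were called. At an unadjusted p under 0.05 there were 0 of the 11, beside 4058 of all 56605 probes. For the fifth minus the first and for the ninth minus the fifth hour, 0 of the 11 were called in each. Of all probes 0.0389% and 0.0813% were called there. At an unadjusted p under 0.05 there was 1 of the 11 in each, beside 2540 and 2945 of all probes. The log2 values of the 9 genes ran from -0.16 to 0.30 for the ninth minus the first hour, with intervals reaching from -0.37 to 0.65. They ran from -0.14 to 0.33 for the fifth minus the first, and from -0.34 to 0.18 for the ninth minus the fifth. The smallest adjusted p between hours outside the *Anpep* calls was 0.17, that of *Anpep* itself between the fifth and the first hour in treated mice (0.23).

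A list of 10 genes known to respond to corticosterone was read in the same comparisons, and other genes known to respond are not in it. Of these, 10 of 10 were called higher in the first hour, with a median log2 fold change of 0.74, where 20.7% of all named genes were called in either direction. At the fifth hour 5 of 10 were called higher, with a median of 0.20, where 20.8% were called. At the ninth hour 1 was called higher, *Sult1a1*, and 5 lower, with a median of -0.19, where 15.5% were called. The difference of the effect between the ninth and the first hour was called for 9 of the 10, all but *Sult1a1* (-0.42, adjusted p 0.19), with a median of -0.85, where 1.46% of all named genes were called. *Mt2*, the most intense of the list, went from 1.496 in the first hour to 0.50 in the fifth and -0.32 in the ninth, and *Sult1a1* from 2.10 to 2.18 and 1.68. The effects at the 3 hours come from different mice and different arrays. The test of *Agt* against the list was not made, and nothing is read from the list about how long the effect on *Agt* lasts.

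**Figure D4:**
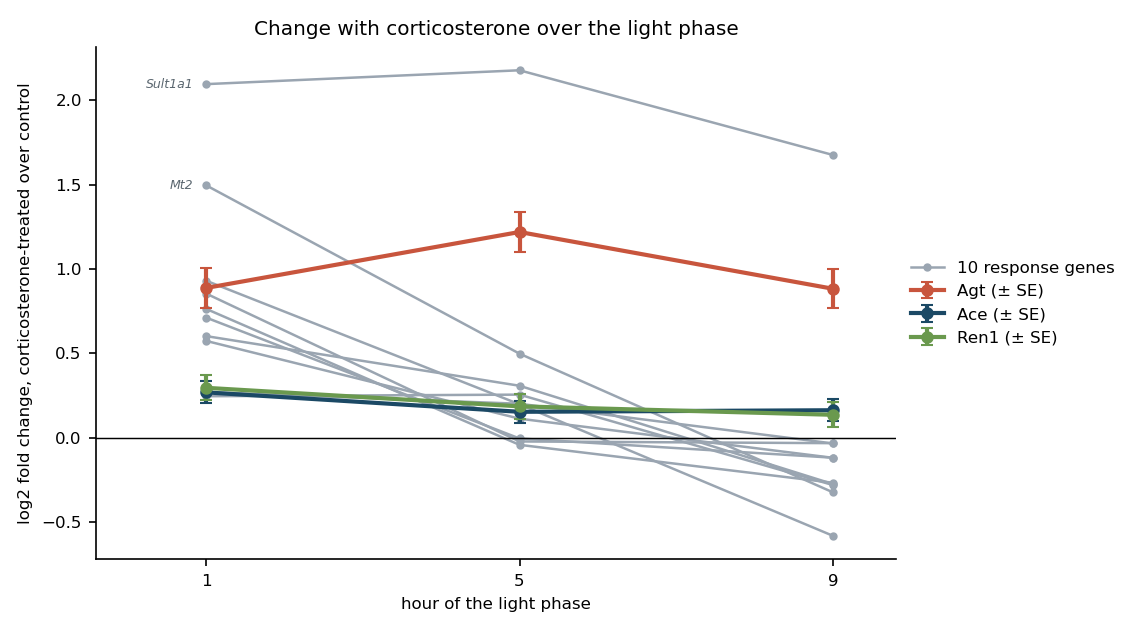
Log2 fold change of corticosterone-treated over control mice against the hour of the light phase for *Agt*, *Ace* and *Ren1* (with SE) and for 10 genes known to respond to corticosterone. *Agt* is at 0.89, 1.22 and 0.88, and all of the 10 other genes but *Sult1a1* are under 0 in the ninth hour.

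The rest of the pathway was read from a list of 19 further genes. The list had 1 gene called higher and 2 lower in the first hour, 3 higher and 3 lower in the fifth, and 1 higher and 2 lower in the ninth. That is 15.8%, 31.6% and 15.8% of the list, beside 20.7%, 20.8% and 15.5% of all named genes. Between the ninth and the first hour 0 of the 19 were called in the limma fit in control and in treated mice. At an unadjusted p under 0.05 there were 3 and 1 of the 19, beside 2847 and 4502 of all 23787 named genes. The probes of 6 of the 19, *Agtr1b*, *Mrgprd*, *Cma1*, *Cpa3*, *Ctsg* and *Klk1*, were well above background in fewer than 24 of the 48 channels, and no fold change is given for them. *Agtr1b* and *Klk1* are among the called genes, each well above background in 1 channel. *Agtr1b* was called lower in each hour and *Klk1* higher in the fifth. The dimmer probe of *Agtr1b* was not called with corticosterone in any hour and pointed the other way in the first.

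*Prcp* encodes an enzyme that removes the last residue of angiotensin II. First-hour signals ran from 637 to 834 in control mice (median 702) and from 491 to 612 in treated mice (median 552), and the groups did not overlap. Its log2 fold change was -0.37 in the first hour (adjusted p 2.8e-06), lower in 8 of 8 arrays, -0.33 in the fifth (adjusted p 2.6e-05), lower in 8 of 8, and -0.19 in the ninth (adjusted p 0.015), lower in 7 of 8. The ninth-hour value did not pass without slide 1, 2 or 3, where it was -0.25, -0.16 and -0.18 with fewer arrays fitted. Nor did it in 1 of the 24 fits without 1 array (-0.16), of which only 8 left out an array of that hour.

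*Ren2* encodes a further renin. Fifth-hour signals ran from 69.1 to 136 in control mice (median 92.5) and from 51.2 to 99.2 in treated mice (median 67.0), and the groups overlapped. Its log2 fold change there was -0.51 (adjusted p 0.00055), lower in 8 of 8 arrays. Within slides 1, 2 and 3 it was -0.52, -0.58 and -0.43. This is the opposite direction to the probe of *Ren1*, which was not called in that hour (0.19). Over the alternatives the *Ren2* value passed throughout and ran from -0.59 with the processed signals to -0.30 with the log2 ratios of the authors. *Ren2* was not called in the first or the ninth hour. Its medians there were 92.1 and 100.6 in control and 80.2 and 85.6 in treated mice. *Mas1* encodes a receptor of the shorter angiotensins. Its log2 fold change was 0.15 in the fifth hour (adjusted p 0.032), higher in 7 of 8 arrays, with levels from 2641 to 3428 in control and from 2847 to 4354 in treated mice. It did not pass without slide 1, 2 or 3 (0.11, 0.19 and 0.17, with fewer arrays fitted). Nor did it in 4 of the 24 fits without 1 array, of which only 8 left out an array of that hour. As the mean of all its probes it did not pass either (0.107, adjusted p 0.25), and its dimmer probe gave 0.061. *Dpp3* encodes a peptidase that takes residues from angiotensins in pairs. Its log2 fold change was 0.13 in the first (adjusted p 0.0078), 0.12 in the fifth (adjusted p 0.015) and 0.11 in the ninth hour (adjusted p 0.026), higher in 8, 6 and 8 of 8 arrays, and in each hour it did not pass without slide 1 or without slide 3, with fewer arrays fitted. The values there were 0.129 and 0.127 in the first, 0.084 and 0.094 in the fifth and 0.126 and 0.106 in the ninth hour. The ninth-hour value of *Dpp3* did not pass without slide 2 either (0.108, adjusted p 0.055), nor in 5 of the 24 fits without 1 array. The fifth-hour value of *Dpp3* did not pass in 1 of these 24 fits. For each hour, only 8 of them left out an array of that hour. Outside the most intense probes, a second probe of *Nln* was called lower in each hour (-0.16, -0.23 and -0.18), with an adjusted p of 0.045 in the first hour and 0.05 there with slide as a block. Its dimmest probe was not called with corticosterone in any hour and had both directions (0.043, -0.14 and 0.14); in treated mice it was called between the ninth and the fifth hour (0.46, adjusted p 0.038), but not with slide as a block (adjusted p 0.072). A second probe of *Rnpep* was called higher in the fifth hour (0.22), while the most intense probes of *Nln* and *Rnpep* were called in none.

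**Figure D5:**
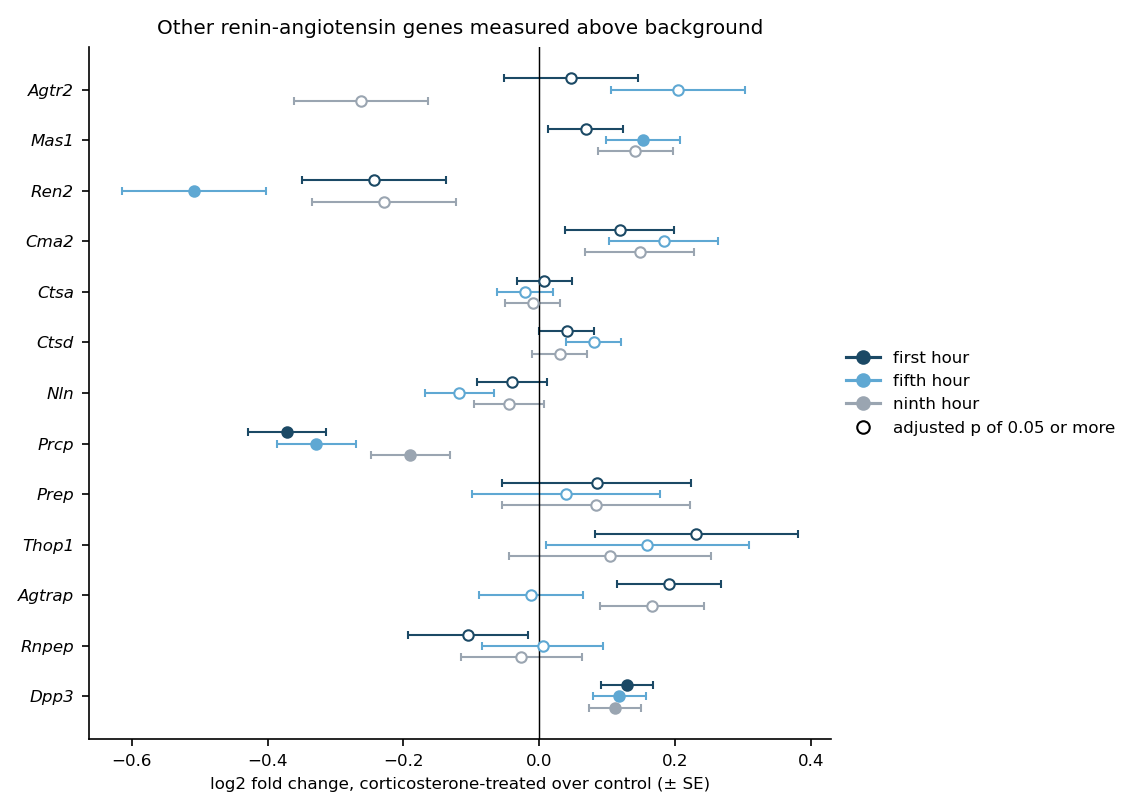
Log2 fold change of corticosterone-treated over control mice in the first, the fifth and the ninth hour for the 13 further pathway genes measured above background, with the SE of the fit; filled points have an adjusted p under 0.05 and open ones do not. *Prcp* lies under 0 in each hour, from -0.37 to -0.19, and *Dpp3* above 0, from 0.11 to 0.13.

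The marker lists of the cells in which these genes are known to be expressed were read in the same comparisons. The share of all named genes called with corticosterone in the 3 hours was 20.7%, 20.8% and 15.5%. Between the ninth and the first hour it was 0.803% in control and 6.08% in treated mice. These shares stand beside every count of called markers below. Beside the counts at an unadjusted p under 0.05 stand 8173, 8081 and 7139 of the 23787 named genes with corticosterone. Between the ninth and the first hour these were 2847 in control and 4502 in treated mice. All 10 astrocyte markers were well above background in every channel, and *Aldoc* was the most intense (mean intensity 72599.5). At the first hour 2 of 10 were called higher, *Aldh1l1* (0.57) and *Aldoc* (0.21), and 2 lower, *Aqp4* (-0.76) and *Sox9* (-0.52). In the fifth hour 2 were higher and 4 lower, and in the ninth 2 higher and 2 lower. That is 40%, 60% and 40% of the list, in both directions. The summed intensity of the list ran from 108128 to 135939 in the control and from 124690.0 to 146807 in the treated mice of the first hour. It ran from 111127 to 136341 and from 125438 to 140362 in the fifth, and from 117559 to 132458 and from 122905 to 133927 in the ninth. The part of astrocytes in the result for *Agt* was not tested.

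Of the 10 choroid plexus markers 7 were well above background in every channel, with *Kl* the most intense. *Folr1* and *Otx2* were near background in part of the channels, and *Slc4a5* was well above it in only 1 of 48. In the first hour 1 was called higher, *Prlr* (0.49), and 0 in the later hours, with 1 and 0 of the 10 at an unadjusted p under 0.05. The summed intensity of the list ran from 1405 to 2110 in the control and from 1622 to 2166 in the treated mice of the first hour, from 1635 to 2459 and from 1619 to 2125 in the fifth, and from 1429 to 2518 and from 1528 to 3327 in the ninth. *Ace* is also known from the endothelium, and of the 10 endothelial markers 3 were called higher in the first hour, *Slc2a1* (0.92), *Pecam1* (0.29) and *Ly6c1* (0.29). Another 3 were called lower, *Flt1* (-0.61), *Cldn5* (-0.36) and *Tek* (-0.30). At an unadjusted p under 0.05 there were 8 of the 10, beside 8173 of all 23787 named genes. The summed endothelial intensity ran from 21316 to 24745 in the control mice of that hour (median 22455) and from 23014 to 34391 in the treated mice (median 27499), with *Slc2a1* the most intense marker. The part of choroid plexus and of endothelium in the first-hour result for *Ace* was not tested.

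For *Anpep*, known in brain from pericytes, the vessel and meningeal lists were read between the ninth and the first hour. All 10 mural, all 10 endothelial and all 8 fibroblast markers were well above background in every channel, with *Acta2*, *Slc2a1* and *Dcn* the most intense of their lists. Of the mural list 0 were called in control mice. At an unadjusted p under 0.05 there was 1 of the 10, beside 2847 of all 23787 named genes. In treated mice 1 was called higher, *Vtn* (0.25). There 5 of the 10 had an unadjusted p under 0.05, beside 4502 of all named genes. The medians over the list were 0.11 and 0.17. Of the endothelial list 1 was higher in control mice, *Tie1* (0.44), and 1 lower, *Cldn5* (-0.35), while in treated mice 3 were higher and 2 lower. Without adjustment 4 of the 10 endothelial markers had a p under 0.05 in control and 7 in treated mice, beside the same 2847 and 4502 named genes. The endothelial medians were 0.13 and 0.16. Of the fibroblast list 0 were called in either, with 0 at an unadjusted p under 0.05. The summed mural intensity ran from 13070 to 14829 in the first and from 12861 to 16669 in the ninth hour in control mice, and from 11718 to 14657 and from 13299 to 16142 in treated mice. The endothelial sum ran from 21316 to 24745 and from 22021 to 26619 in control mice, and from 23014 to 34391 and from 20560 to 24889 in treated mice. The fibroblast sum ran from 8699 to 14648 and from 10028 to 14846 in control mice, and from 7446 to 12482 and from 9142 to 13682 in treated mice. The part of these cells in the result for *Anpep* was not tested.

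The lists of the remaining cell types were read as well. In the first hour 0 of 8 neuronal markers were called, with 1 at an unadjusted p under 0.05, while 3 were higher in the fifth and 2 in the ninth hour (37.5% and 25% of the list). Of 7 microglial markers 3, 2 and 1 were lower in the 3 hours (42.9%, 28.6% and 14.3%). Of 7 oligodendrocyte markers 2 were higher in each hour, and 3, 3 and 4 lower (71.4%, 71.4% and 85.7% in all). Of the 6 blood cell markers 5 had a matched probe, and 1, *Ptprc*, was lower in each hour (20%). Between the ninth and the first hour in treated mice, 2 of 7 microglial (28.6%) and 1 of 7 oligodendrocyte markers (14.3%) were called higher. In control mice 0 of either list were called between these hours. The part of these cells in the result for *Anpep* was not tested either.

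The genes whose levels were most like those of each gene over the 24 control mice were named by Pearson's r on log2 intensities, out of 15407 genes. The points share 3 slides and 3 hours, and the values are a description. For *Agt* these were *Pelp1*, *Top1mt*, *Foxo1*, *Ssbp2* and *Cpne2*, with r from 0.789 to 0.844. For *Ren1* they were *Snap25*, *Lxn*, *Slc30a10*, *Cpsf4* and *Gm46603*, with r from 0.620 to 0.755, of which *Snap25* is also in the neuronal list. These values came to between 0.382 and 0.636 after the mean of each slide was taken off. For *Ace* they were *Ache*, *Rtl8a*, *Slc4a2*, *Evpl* and *F630040K05Rik*, with r from 0.778 to 0.838. The slides held unequal numbers of arrays of each hour, and the part of slide or hour in these values was not tested. For *Atp6ap2* they were *Tomm70a*, *Rpl27*, *Snapc5*, *Plek* and *Herc3* (0.839 to 0.892). For *Enpep* they were *Sat1*, *Emg1*, *Gng10*, *Zfp354c* and *Osgin2* (0.787 to 0.850). For *Anpep* they were *Gja4*, *Nelfe*, *Tie1*, *Rnf31* and *Ccl12* (0.805 to 0.839), of which *Tie1* is also in the endothelial list. For *Lnpep* they were *Snx19*, *Lck*, *Smpd2*, *Myl4* and *Mzt2* (0.775 to 0.798). For *Mme* they were *Sybu*, *Bmt2*, *Zfp712*, *Mospd2* and *Mindy3* (0.830 to 0.841). With the mean of each slide taken off, r was 0.772 to 0.844 for *Agt*, 0.763 to 0.837 for *Ace* and 0.771 to 0.877 for *Atp6ap2*. It was 0.774 to 0.847 for *Enpep*, 0.813 to 0.852 for *Anpep*, 0.697 to 0.77 for *Lnpep* and 0.79 to 0.812 for *Mme*.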

How the data were processed

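Each scanner file gives, per the file headers, the median pixel intensity of every spot and of its local background in Cy3 and Cy5, in units of intensity and without normalization. A deposited matrix of the authors holds the log2 ratio of the treated over the control channel for each probe; it lay closest to the log2 ratios computed here with an offset of 50 and loess alone (median absolute difference 0.00119, and 0.0101 with quantile normalization added). From the ratios with an offset of 0, loess and quantile normalization, the setting of the fold changes here, it differed by 0.0617 (Pearson's r 0.823). Reading and fitting used R 4.3.3, limma 3.58.1, statmod 1.5.0, data.table version 1.17.8 and jsonlite 2.0.0; Python 3.11.15, pandas 2.3.3 and matplotlib 3.10.9 served for promoters and figures. The normexp background correction had an offset of 0 for fold changes, standard errors, intervals and intensities, and 50 for the p values. Loess within arrays, with no weight on control spots, and quantile normalization between arrays followed; the 3671 control spots were removed and copies of a probe averaged. Spots marked as outliers were missing, which affected 77 probes and none of the genes described. The separate channel fit had 6 groups, 12 comparisons and an intraspot correlation of 0.286, and p values were adjusted by Benjamini and Hochberg over 56605 probes in each comparison. The corticosterone comparisons of 1 hour share their mice with the comparisons between hours, so no overlap between them is given.

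The genes and lists were chosen with earlier results of these data known. A gene is represented by its most intense probe. Of the 19 further pathway genes, those called in any hour are named, and the further probes of *Nln* and *Rnpep* were chosen after their values were seen; 1 gene of the list as planned, beyond these 19, is not reported here. For each gene well above background in all channels, the 5 genes with the highest Pearson's r over the control mice are named. Names came from a RefSeq table matched to the accessions on the array. The separate channel fit was tested on simulated normalized values with known changes. The steps before it, the naming and the search for motifs were not tested in this way.

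Alternatives were an offset of 0 for p values or of 50 for fold changes, no background correction, median centring, Aquantile, processed signals from the scanner's own software, 2 filters on dim probes, a test on log ratios, slide as a block, each slide and each array left out, a variance trend, the log2 ratios of the authors and the mean of all probes of a gene. A fit that kept the outlier spots was chosen after seeing the data.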

Additional observations from a re-analysis of the deposited data

Results flagged for a closer look

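In 54 groups of 8 mice, 9 genes in 6 groups each, the gap between the highest or lowest mouse and its nearest neighbour was compared with the range of the group. In 1 group the gap was larger than the limit for 8 values: the highest treated mouse of the first hour for *Lnpep* had a signal intensity of 329, with the next at 273, a gap of 0.635 of the range on the log2 scale. Chance gives about 1 such group in 20. *Lnpep* was called in none of the comparisons, and its log2 fold change in that hour was 0.063. Of 33 tests of a difference of the corticosterone effect between hours, 11 probes in 3 comparisons, 0 were called in the limma fit. At an unadjusted p under 0.05 there were 0, 1 and 1, beside 4058, 2540 and 2945 of all 56605 probes.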

How the results depend on the processing

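The log2 fold change of *Agt* with corticosterone passed the threshold under each of the 17 alternatives and without each of the 24 arrays. It ran from 0.83 to 0.945 in the first, from 1.06 to 1.39 in the fifth and from 0.84 to 0.92 in the ninth hour over the alternatives, and from 0.81 to 0.94, 1.12 to 1.32 and 0.83 to 0.92 without 1 array. For each hour, only 8 of the 24 fits without 1 array left out an array of that hour.

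The number of probes called in the first hour, 3 of 11, ran from 1 to 4 over the alternatives. It was 1 without slide 3, where *Ace* and *Ren1* were lost, and 2 without slide 2, where *Ace* was lost, with fewer arrays fitted in both. It was 4 with each filter on dim probes, where *Anpep* was added. In the fifth hour, 1 of 11 became 2 with Aquantile and with the log2 ratios of the authors. In the ninth hour, 1 of 11 became 2 with Aquantile, with the processed signals and with the log2 ratios of the authors. In each of these settings of the fifth and the ninth hour the added probe was that of *Ace*, and the cause was not tested. In control mice between the ninth and the first hour, 1 of 11 became 0 without slide 1 and 0 without slide 3, where fewer arrays were fitted too. Without 1 array the counts ran from 3 to 4 in the first, from 1 to 2 in the fifth and from 1 to 2 in the ninth hour, and they were 1 for both comparisons of the ninth with the first hour within a treatment and 0 in the other 7 comparisons. The added probes were *Ren1* in the fifth hour without replicate 7 of that hour (0.23) and *Ace* in the ninth without replicate 1 (0.20), and in the first hour *Mme* without replicate 8 (-0.27) and *Anpep* without replicate 7 (-0.18). Without replicate 4 the same *Anpep* value was -0.093 (adjusted p 0.32).

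*Ace* in the first hour was 0.25 without slide 2 and 0.26 without slide 3, with adjusted p values of 0.075 and 0.053 in a range from 0.00054 to 0.075. *Ren1* was 0.19 without slide 3, with an adjusted p of 0.13 in a range from 0.0020 to 0.13. Its log2 fold change was 0.15 with an offset of 50, 0.16 with the log2 ratios of the authors and 0.17 without background correction, where it passed. *Ren2* in the fifth hour was -0.31, -0.30 and -0.36 in the same settings and passed there too. An offset adds the same amount to both channels, which by itself makes the log2 ratio of a dim probe smaller. What else entered these differences was not tested. The p values of the main fit come from the offset of 50, so they belong to the smaller fold changes. *Anpep* between the ninth and the first hour in control mice was 0.40 without slide 1 and 0.295 without slide 3, with adjusted p values of 0.30 and 0.11 in a range from 0.0022 to 0.30. In treated mice it passed under all 15 alternatives that could be fitted there, from 0.34 to 0.46. *Anpep* with corticosterone in the first hour passed with each filter on dim probes, where fewer probes were tested (adjusted p 0.039 and 0.046, in a range from 0.039 to 0.32).

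Over the 9 genes and the 6 further pathway genes called in any hour, 41 results under 17 alternatives gave 682 values, of which 639 stayed on their side of the threshold, 36 no longer passed and 7 newly passed. Without 1 array, 959 of 984 values stayed there, 21 no longer passed and 4 newly passed. A corticosterone result of 1 hour rests on the 8 arrays of that hour, and a fit that leaves out another array keeps all 8. The alternative that changes only the offset for fold changes keeps the p values of the main fit and cannot move a value over the threshold. For a gene with 1 probe, the mean of all its probes is that probe. The counts of values that stayed are therefore no measure of robustness. The direction of 0 called values changed, while some values that were not called changed sign, as *Agtr1a* did in the first hour (-0.23 to 0.062 over the alternatives). Marker lists, the list of genes known to respond and the further probes of *Nln* and *Rnpep* were not run under the alternatives, except slide as a block. The tests on log ratios could not give values within 1 treatment.

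Dye and treatment cannot be told apart within 1 hour. Litter is not in the fit, so related mice count as independent. Signals near background limit *Agtr1a*, the second probes of *Enpep* and *Mme*, and 6 of the 19 further genes. Probes that read near copies, such as *Ren1* and *Ren2*, were not told apart. RNA levels say nothing of peptides, and the mice drank the hormone freely, so the dose of each mouse is not used here.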
